A study of Caenorhabditis elegans with 2 samples.

Results

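Hox proteins bind DNA together with cofactors of the TALE homeobox class, whose homeodomains carry an insertion of extra residues between the first helices. In the worm, 6 genes of this class were followed here in a map of CEH-13, the labial-type Hox protein: ceh-20, ceh-40 and ceh-60 of the PBC type, unc-62 and psa-3 of the MEIS type, and irx-1 of the Iroquois type. They are 6 of 19973 protein-coding genes and were taken as a named list. The data were peak lists from ChIP-seq, in which DNA bound by a tagged protein is pulled down and sequenced. Embryos came from strain OP756, which has the allele unc-119(tm4063) and the transgene wgIs756. The transgene joins ceh-13 to TY1, EGFP and 3xFLAG at its C-terminal end and also supplies unc-119(+). Early embryos of both sexes, 2 hours old and obtained by bleaching, were used as whole organisms with an antibody against GFP. There was 1 group of 2 biological replicates and no group without the tag, so no groups could be compared. Cell types were mixed in these embryos, and what drives the transgene is not given in the sources used here.

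PBC proteins such as CEH-20, the worm counterpart of Extradenticle and Pbx, bind next to a Hox protein on composite sites that hold the core TGAT. MEIS proteins such as UNC-62, the counterpart of Homothorax and Meis, bind the core TGACAG and partner PBC proteins, including their entry into the nucleus in flies. Iroquois proteins share the TALE homeodomain but are not known as Hox partners of this kind. The question asked of the lists was whether the tagged Hox protein has peaks at the genes that encode such partners.

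For each gene a window was set from 5 kb upstream of its 5′ end to 1 kb beyond its other end, and every peak whose summit lay in it was taken. Positions are in ce11 (WBcel235), and distances are in bp along the gene, negative upstream of the 5′ end. Each peak has a deposited signal, a score without a stated scale that is compared here only within a list, and a q-value, both from the authors' peak calling. Rank 1 is the highest signal of a list. The pooled list and each replicate list held 30000 peaks, of which 1146 (pooled), 1380 (replicate 1) and 1082 (replicate 2) had q under 0.05, so most of the listed peaks are weak. The list left after the step on the irreproducible discovery rate (IDR) held 512 peaks, and these were the 512 of highest pooled signal. Read numbers are not part of the lists, and the depth behind a peak is therefore unknown.

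The 6 windows together held 31 pooled peaks, 28 of replicate 1 and 26 of replicate 2 over 77.96 kb, and they were spread very unevenly. unc-62 held 23 of the 31 pooled peaks, psa-3 held 3, ceh-20 and irx-1 held 2 each, ceh-40 held 1 and ceh-60 held none. No window of the 6 held an IDR peak, against 5.14% of all protein-coding genes. ceh-20 and unc-62, 2 of the 6, had a pooled peak of q under 0.05, against 10.3% of all genes. Any pooled peak at all was found for 5 of the 6, which is near the background of 83.9%. A peak of replicate 1 that overlapped one of replicate 2 by at least 1 bp was found for 5 of the 6, against 58.3% of all genes. None of the 85 peaks of the 3 lists lay within 500 bp of a tRNA, snoRNA or snRNA gene, and the nearest such gene was 13.3 kb from a summit.

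**Figure D1:**
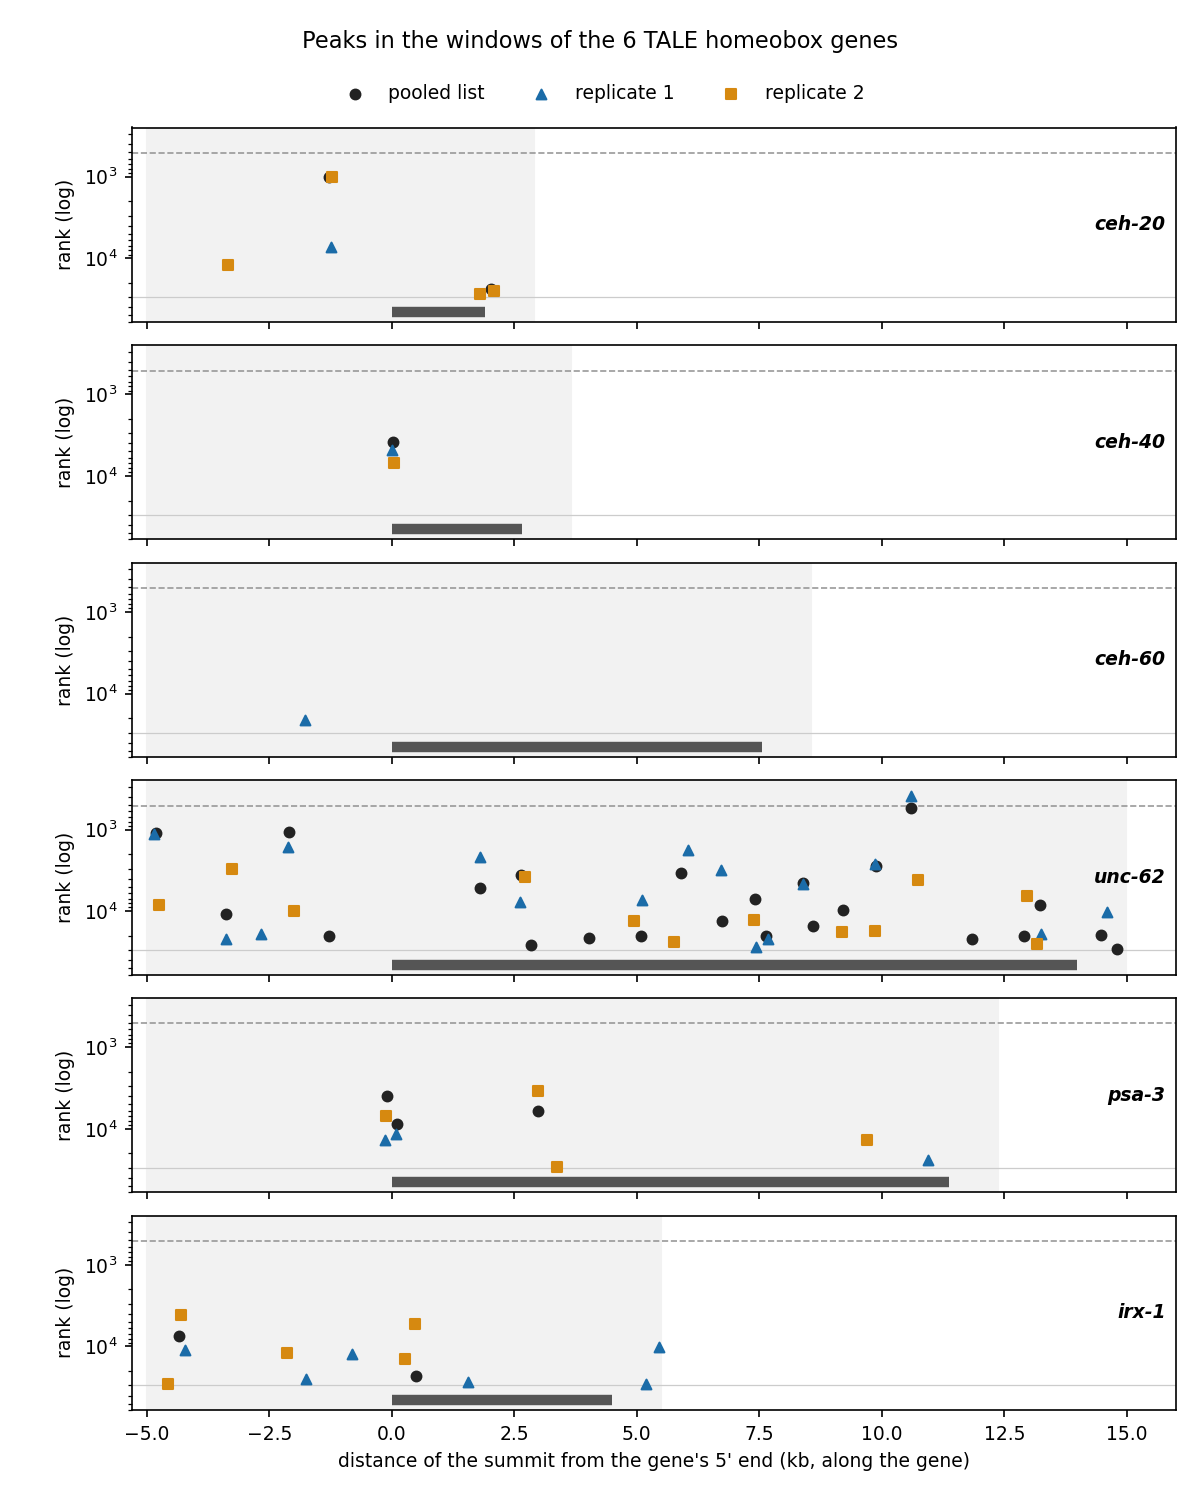
Each panel is 1 gene, the horizontal axis is the distance of a summit from the gene's 5′ end in kb along the gene, and the vertical axis is the rank of the peak by signal in its list (log scale, strongest on top). Shading marks the window, the dark bar the gene body, the dashed line the rank of the weakest IDR peak in the pooled list (512) and the thin line the last rank of a list (30000). Only a replicate 1 peak of unc-62, at rank 393, lies above the dashed line, and ceh-60 has a single peak, of replicate 1.

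Sequence at the peaks the results turn on is shown first, read from the RefSeq WBcel235 genome. The upstream peaks of ceh-20 and unc-62 are shown because they are the flank peaks of q under 0.05, and capitals mark the span of the summits of the 3 lists for ceh-20 (chrIII:6978509-6978709, plus strand). For unc-62 capitals mark motif matches: GGGCGG on the minus strand at the peak -2101 bp from the 5′ end (chrV:4495260-4495460, plus strand) and TAATTA at the peak at -4802 (chrV:4492559-4492759, plus strand). Another flank peak of unc-62, at -3374 (chrV:4493987-4494187, plus strand), is shown because TGATNNAT and TGACAG lie side by side in it.
ceh-20, -1275: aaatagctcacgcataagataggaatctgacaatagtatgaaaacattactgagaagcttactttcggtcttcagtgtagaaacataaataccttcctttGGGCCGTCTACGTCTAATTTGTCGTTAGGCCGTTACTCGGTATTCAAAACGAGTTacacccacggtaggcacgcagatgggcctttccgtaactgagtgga
unc-62, -2101: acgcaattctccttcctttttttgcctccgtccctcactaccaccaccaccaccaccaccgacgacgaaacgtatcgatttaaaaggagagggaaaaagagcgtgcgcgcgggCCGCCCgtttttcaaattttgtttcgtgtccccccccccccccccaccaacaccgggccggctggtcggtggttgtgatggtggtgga
unc-62, -4802: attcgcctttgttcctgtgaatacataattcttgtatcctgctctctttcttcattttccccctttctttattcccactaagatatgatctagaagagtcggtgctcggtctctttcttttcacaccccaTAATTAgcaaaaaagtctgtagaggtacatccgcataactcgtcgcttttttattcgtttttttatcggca
unc-62, -3374: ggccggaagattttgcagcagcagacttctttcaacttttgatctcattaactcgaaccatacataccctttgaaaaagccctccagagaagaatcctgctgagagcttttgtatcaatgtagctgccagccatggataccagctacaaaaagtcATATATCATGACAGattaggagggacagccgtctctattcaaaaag

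Shorter stretches show motif matches at other peaks, again in capitals. The strongest peak of the whole group, in unc-62 at +10591, has a TGATNNAT match with its centre 44 bp before the summit (chrV:4507993-4508022, plus strand). At ceh-40, TGACAG and TGATNNAT, both read as their reverse complements along the gene, share 1 base (chrX:12320715-12320744, minus strand), and another TGACAG lies upstream of the gene (chrX:12320778-12320852, minus strand). The stretch with the shared base lies inside the gene, wholly in an annotated exon. A further TGACAG, not printed, lies inside the gene 87 bp from the pooled summit. At psa-3 a TGACAG lies just upstream of the gene (chrX:15407741-15407930, plus strand).
unc-62, +10591: agccttggcaaTGATGGATcgccgcagctg
ceh-40, transcript start: atacgtttcCTGTCATTTATCAttaattct
ceh-40, upstream: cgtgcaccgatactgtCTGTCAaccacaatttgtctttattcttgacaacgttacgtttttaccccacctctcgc
psa-3, upstream: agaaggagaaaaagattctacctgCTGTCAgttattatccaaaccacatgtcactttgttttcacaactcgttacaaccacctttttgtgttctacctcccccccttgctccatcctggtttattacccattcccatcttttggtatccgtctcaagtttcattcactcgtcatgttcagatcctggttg

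ceh-20, the main PBC gene of the worm, is gene WBGene00000443 on chromosome III, 6979884 to 6981785, plus strand. Its window held 1 peak of q under 0.05, upstream of the gene. In the pooled list the summit lay at -1275 with a signal of 66.7 (q = 0.0393, rank 1006). In replicate 2 it lay at -1221 with a signal of 33.5 (q = 0.0409, rank 1014), and in replicate 1 at -1237 with a signal of 26.4 (q = 0.490, rank 7342). The 3 summits lie within the capitals printed above, and the peak was strong by rank in the pooled list and in replicate 2 but lower in replicate 1. The summit is between genes: the stretch to the upstream gene F31E3.2 is 1858 bp long, and the summit is 584 bp past the end of F31E3.2. It is thus nearer to the body of F31E3.2 than to ceh-20, while the nearest 5′ end is that of ceh-20. None of the 6 motifs searched was found within 100 bp of it.

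The other peaks of the ceh-20 window were weak. A pooled peak at +2033 (signal 26.5, q = 0.866, rank 23886) lay 132 bp beyond the gene end and was nearer to the 5′ end of F31E3.6, 164 bp away. Replicate 2 had a peak there too, at +2083 with rank 24930, and replicate 1 had none. The further peaks of replicate 2, at -3339 (rank 12009) and +1794 (rank 27708), overlapped no peak of replicate 1. So 1 of the 4 replicate 2 peaks of this window was matched in replicate 1. With 2 pooled peaks in 7.90 kb, ceh-20 had 0.846 times the 2.36 that its window length predicts at the genome-wide density of 0.299 peaks per kb. The ratio was 0.423 in replicate 1 alone and 1.69 in replicate 2 alone, and it was also above 1 with 2 kb (1.36) or 10 kb (1.3) upstream and among the 10000 strongest peaks (1.27), so the pooled list gives no direction for ceh-20.

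ceh-40, a second PBC gene known to overlap in function with ceh-20, is gene WBGene00000461 on chromosome X, 12318126 to 12320777, minus strand. It had 1 peak in each list, at the 5′ end. The pooled summit lay at +25 with a signal of 47.7 (q = 0.329, rank 3821). In replicate 1 it lay at -5 with a signal of 29.5 (q = 0.350, rank 4815), and in replicate 2 at +55 with a signal of 21.7 (q = 0.524, rank 6848). The peak was thus in the upper part of all 3 lists and passed q under 0.05 in none. Its summits span 60 bp between the replicates, and the overlapping TGACAG and TGATNNAT matches printed above lie 19 and 25 bp from the pooled summit. The window had 0.386 times the predicted number of pooled peaks and the same ratio in either replicate alone, but 1.26 times for the gene body alone and 1.16 times among the 10000 strongest peaks.

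ceh-60, the PBC gene known for regulating vitellogenin genes with UNC-62 in the intestine, is gene WBGene00017690 on chromosome X, 6522596 to 6530146, minus strand. It had no pooled and no replicate 2 peak in 13.55 kb, where 4.05 pooled peaks were predicted. Its only peak was one of replicate 1 at -1773 with a signal of 18.5 (q = 0.822, rank 21096). Of the 1683 genes with a window at least as long, 48 had no pooled peak. By the exact binomial test described next, the count of 0 had p = 0.0347 (adjusted p = 0.936). The lowest possible count, 0, reaches a raw p under 0.05 only where at least 3.7 peaks are predicted. After adjustment, 0% of all genes passed with fewer peaks than predicted. The test therefore cannot decide whether ceh-60 lacks peaks beyond the prediction. Since the lists end at rank 30000, weaker enrichment would not be listed.

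unc-62, the MEIS gene, is WBGene00006796 on chromosome V, 4497461 to 4511449, plus strand, with 18 annotated transcripts from 15 distinct starts. Its window of 19.99 kb held 23 pooled peaks, 3.85 times the 5.98 that its length predicts, or 1.15 peaks per kb. In a two-sided exact binomial test over all 19973 genes with Benjamini-Hochberg adjustment, unc-62 was the 1 gene of the 6 with more peaks than predicted (adjusted p = 0.00378), against 0.1% of all genes, and it had the smallest p of all genes tested. None of the 6 passed the test with fewer peaks than predicted, against 0% of all genes. At a raw p under 0.05, 814 genes were above and 108 below the prediction. Over 10024 bins of 10 kb, the variance of the number of pooled summits was 1.63 times the mean, while the binomial test takes it as about equal to the mean. Its p-values are therefore likely too small. By the same exact test the excess did not pass in replicate 1 alone (16 peaks, ratio 2.68, adjusted p = 0.415), in replicate 2 alone (12 peaks, ratio 2.01, adjusted p = 1) or with overlapping pooled peaks merged (ratio 3.40, adjusted p = 0.201). Over all 19973 genes, 20 passed above the prediction in the pooled list. In replicate 1 alone and with peaks merged 0 passed, and in replicate 2 alone 7 did.

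**Figure D2:**
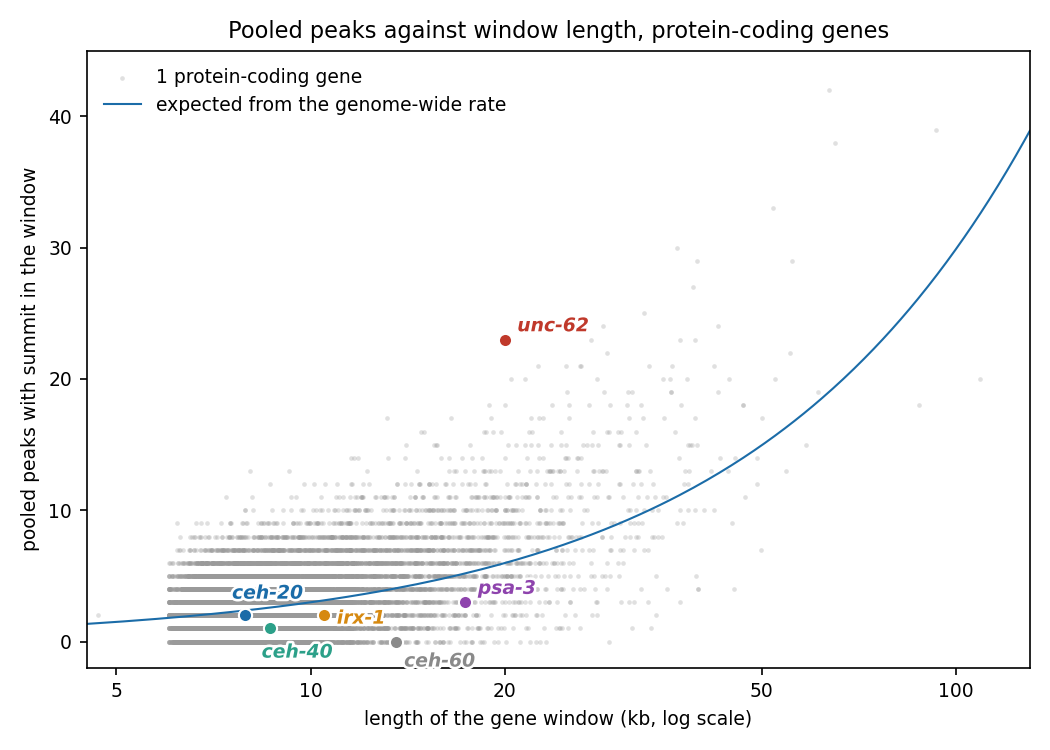
Each grey point is 1 of 19973 protein-coding genes, with the length of its window in kb (log scale) against the number of pooled peaks whose summit lies in it, and the line is the number predicted from the genome-wide density. unc-62 lies at 23 peaks, far above the line, and in this pooled list the other 5 genes lie below it with 0 to 3 peaks. Under other windows or lists ceh-20, ceh-40, psa-3 and irx-1 lie above the prediction, as with irx-1 in either replicate alone.

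The peaks of unc-62 lay along the whole window. Of the 23 pooled peaks 4 were upstream (0.8 per kb), 17 were in the gene body (1.22 per kb) and 2 were beyond its end, and 8 were within 500 bp of one of its annotated starts. The gene has 15 distinct starts, and the share of the window that lies this near to one was not computed. The count of 8 therefore shows no preference for starts. No other protein-coding gene lies within 10.9 kb upstream, and T28F12.1 lies 1583 bp downstream. On the long transcript T28F12.2a.1, intron 8 (3973 bp) held 5 summits and intron 1 (3629 bp) held 3. Intron 6 and intron 9 held 2 each, introns 2, 4 and 5 held 1 each, and exons 6 and 8 held 1 each. Several of these intron summits lie in exons of other annotated unc-62 transcripts. In intron 8, +9888, +10591 and +11833 lie in untranslated exons of these. In intron 6, +7409 lies in an untranslated exon and +7639 in a coding exon. The signals ran from 24.0 to 84.5 with a median of 35.8, against a median of 32.1 over the whole pooled list.

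Of these, 3 peaks had q under 0.05 in the pooled list. The strongest was in intron 8, at +10591, with a pooled signal of 84.5 (q = 0.00278, rank 541), and at the same base in replicate 1 with 63.2 (q = 0.00382, rank 393). In replicate 2 it lay at +10729 with a signal of 24.5 (q = 0.366, rank 4182). This summit is also in an untranslated exon of a shorter annotated transcript, 848 bp from the nearest annotated start of unc-62. The pooled signal is just under the 86.2 of the weakest IDR peak, at rank 512.

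The other 2 were in the upstream flank. The peak at -2101 had a pooled signal of 65.5 (q = 0.0417, rank 1068), with 38.1 in replicate 1 (-2125, q = 0.0698, rank 1655) and 19.5 in replicate 2 (-1988, q = 0.639, rank 9827). The peak at -4802 had a pooled signal of 64.7 (q = 0.0453, rank 1115), with 41.7 in replicate 1 (-4844, q = 0.0332, rank 1130) and 20.5 in replicate 2 (-4754, q = 0.581, rank 8368). All 3 peaks were thus present in both replicates and higher by rank in replicate 1, and no peak of unc-62 in replicate 2 had q under 0.05. The strongest of replicate 2 was another one, at -3252 with a signal of 26.4 (q = 0.268, rank 3019), where the pooled summit lay at -3374 (signal 35.8, q = 0.654, rank 10942) and replicate 1 ranked 22203.

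psa-3, a MEIS-related gene known as a target of the Hox protein NOB-1 with CEH-20 in an asymmetric cell division of the larval tail, is WBGene00009560 on chromosome X, 15407931 to 15419298, plus strand. Its window held 3 pooled peaks, 0.577 times the prediction (1.73 times among the 10000 strongest peaks), and none had q under 0.05. The strongest lay at -90 with a pooled signal of 47.4 (q = 0.336, rank 3933), with 21.8 in replicate 1 (-141, rank 13868) and 21.6 in replicate 2 (-120, rank 6914). A neighbouring pooled peak at +109, in exon 1, had a signal of 38.3 (q = 0.580, rank 8797), with a replicate 1 summit at +82 (rank 11489). The peak at +2992 had a signal of 42.5 (q = 0.467, rank 5972) and was listed in replicate 2 (+2991, signal 25.6, rank 3471) but not in replicate 1. It lies in intron 2 of psa-3 and inside pqn-36 as well, so it cannot be given to 1 of the 2 genes. psa-3 thus had a peak of both replicates at its 5′ end, as ceh-40 did.

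irx-1, the Iroquois gene, is WBGene00007984 on chromosome I, 9536465 to 9540966, minus strand. Its window held 2 pooled peaks, 0.637 times the prediction, but the ratio was 1.91 in replicate 1 alone, 1.59 in replicate 2 alone and 1.72 with 10 kb upstream. The stronger, at -4333, had a pooled signal of 40.2 (q = 0.530, rank 7342), with 23.4 in replicate 1 (-4224, rank 11179) and 24.6 in replicate 2 (-4296, rank 4170). It lies inside the neighbouring gene swah-1, 566 bp from the 5′ end of swah-1, and so is nearer to that gene than to irx-1. The other pooled peak, at +489, had a signal of 26.9 (q = 0.858, rank 23183), with 23.2 in replicate 2 (+481, rank 5247) and no peak in replicate 1. The replicate lists held more peaks here than the pooled list, 6 in replicate 1 and 5 in replicate 2, and 2 of the 6 were matched in replicate 2.

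By the strongest pooled peak of each window, the 6 genes fall in the order unc-62, ceh-20, ceh-40, psa-3, irx-1 and ceh-60. The best peak of unc-62 was higher than that of 94.6% of all protein-coding genes, and that of ceh-20 higher than that of 90.8%. ceh-40 and psa-3 were next, above 72.6% and 72.2% of genes, and their signals of 47.7 and 47.4 are nearly equal. irx-1 was above 57.3%. These percentages and the order are not matched for window length, which was 19.99 kb for unc-62 and 7.90 kb for ceh-20. A longer window has more room for a strong peak. The order differed between the replicates. In replicate 1 the best signals were 63.2 for unc-62, 29.5 for ceh-40, 26.4 for ceh-20, 24.2 for irx-1, 23.2 for psa-3 and 18.5 for ceh-60. In replicate 2 they were 33.5 for ceh-20, 26.4 for unc-62, 25.6 for psa-3, 24.6 for irx-1 and 21.7 for ceh-40. So unc-62 was first in replicate 1 but second to ceh-20 in replicate 2, and ceh-40 moved from the second place to the last of the genes with a peak. ceh-60 was last or without a peak in all 3 lists.

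**Figure D3:**
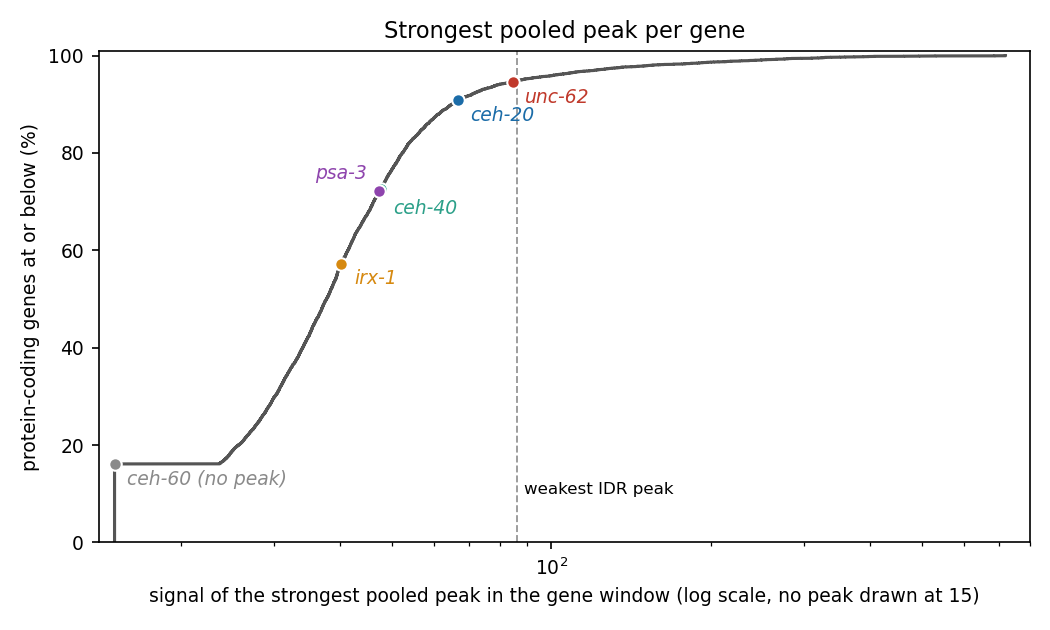
The curve gives the percentage of protein-coding genes whose strongest pooled peak has at most the signal on the horizontal axis (log scale), with genes without a peak drawn at 15, and points mark the TALE genes. unc-62 (84.5) lies just left of the dashed line at the weakest IDR peak (86.2), and ceh-60 is among the genes with no pooled peak.

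The replicates were compared peak by peak, by an overlap of at least 1 bp. Of the 28 replicate 1 peaks in the 6 windows, 17 were overlapped by a replicate 2 peak (60.7%, 95% Wilson interval 42.4 to 76.4), against 43.4% of the whole replicate 1 list. Of the 26 replicate 2 peaks, 17 were overlapped in replicate 1 (65.4%, 46.2 to 80.6), against 44.9%. Most of the matched peaks belong to unc-62, where 11 of 16 replicate 1 peaks and 11 of 12 replicate 2 peaks were matched. For replicate 1, ceh-20 and ceh-40 had 1 of 1 matched, ceh-60 0 of 1, psa-3 2 of 3 and irx-1 2 of 6. For replicate 2, ceh-20 and psa-3 had 1 of 4 each, ceh-40 1 of 1 and irx-1 3 of 5. The higher shares of the group thus rest on unc-62. It has the most pooled peaks per kb of the 6, and the overlap predicted at its own density was not computed. Of the 31 pooled peaks, 18 were overlapped in both replicates (58.1%, 40.8 to 73.6), against 43.7% of the pooled list. Intervals cover the counting of peaks only, and neighbouring peaks of 1 gene are not independent. Both replicate lists were called against the same control, and the part of that control in their agreement was not tested.

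Within the 17 matched replicate 1 peaks the ranks differed widely. The better rank was that of replicate 1 for 8 peaks and of replicate 2 for 9. For unc-62 it was that of replicate 1 in 7 of 11, while for ceh-20, psa-3 and irx-1 it was that of replicate 2 in 5 of 5. The psa-3 peaks at +82 and -141 were matched to the same replicate 2 peak (-120). The unc-62 peaks at +7681 and +7440 also shared a replicate 2 peak (+7398), so these counts are not of independent pairs. Matched summits were 104 bp apart at the median and 395 bp at most.

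**Figure D4:**
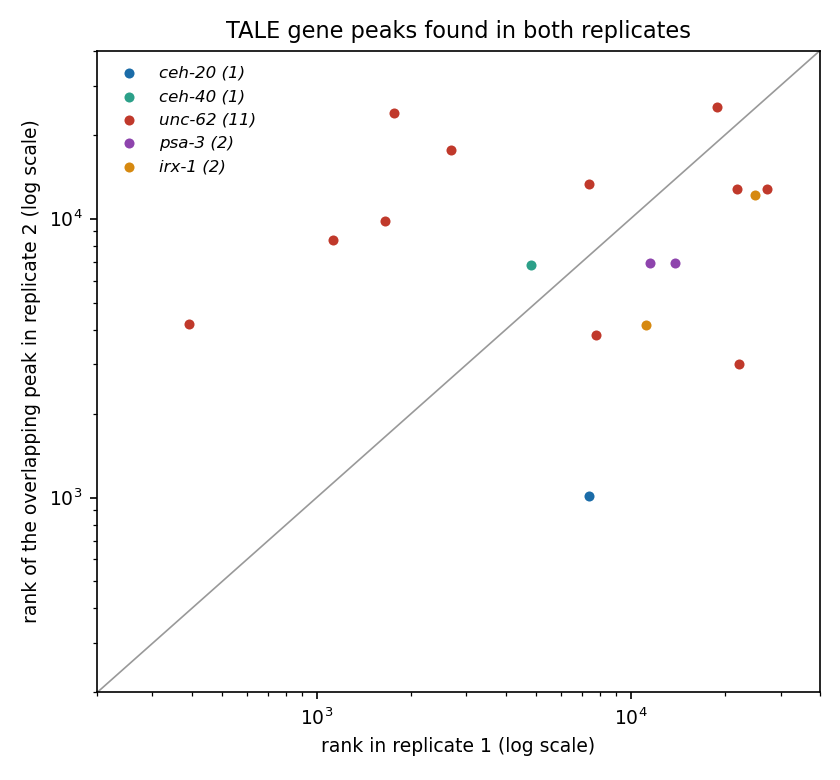
Each point is 1 of the 17 replicate 1 peaks that a replicate 2 peak overlapped, with its rank in replicate 1 against the rank of the overlapping peak in replicate 2 (both log scales, with numbers of peaks per gene in the key). Points above the line rank better in replicate 1, and the unc-62 peak at rank 393 of replicate 1 has rank 4182 in replicate 2.

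Motifs were counted on both strands within 100 bp of each pooled summit, and matches are letters, not shown sites of binding. TGATNNAT, a composite Hox and PBC core, was found at 4 of the 31 peaks (12.9%, 95% Wilson interval 5.13 to 28.9), against 12.0% of all 30000 pooled peaks. 3 of these 4 peaks were in unc-62 and 1 in ceh-40. TAATTA, a general homeodomain core, was at 2 (6.45%), against 7.53%, and the control TAGTNNTA at 3 (9.68%), against 7.02%. These 3 shares are thus near those of the whole list.

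TGACAG, the MEIS core, was at 8 of the 31 peaks (25.8%, 13.7 to 43.2), against 6.56% of all pooled peaks. They were 5 of unc-62 and 1 each of ceh-40, psa-3 and irx-1, and none of ceh-20. GGGCGG was at 2 (6.45%), against 6.75%, and CCGCAC at 5 (16.1%, 7.09 to 32.6), against 4.79%. GGGCGG and CCGCAC were taken from earlier results on these peaks. The difference for TGACAG and CCGCAC was not tested, since most of these peaks share 1 locus. A TGATNNAT within 10 bp of a TGACAG was noticed at 2 of the 31 peaks after the matches were seen, at unc-62 (-3374) and ceh-40 (+25), and occurs at 39 of the 30000 (0.13%). Since the pair was chosen from these same peaks, the 2 shares are not a fair comparison, and their difference was not tested. The GC content of the 31 windows was 41.8% at the median, against 40.3% for all pooled peaks and 35.4% of the genome.

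Other genes of the same regulatory circuit were counted the same way. Of 6 Hox genes, mab-5, lin-39, php-3, nob-1, egl-5 and ceh-13, only the last had an IDR peak or a pooled peak of q under 0.05. Over all genes these shares were 5.14% and 10.3%. The ceh-13 window of 8.38 kb held 9 pooled peaks (ratio 3.59, exact binomial adjusted p = 0.416), with the strongest at -822 (signal 153, rank 193) and the next at -4453 (signal 94.0, rank 445). Reads from the transgene and from the native ceh-13 gene cannot be told apart. Of 12 genes known as targets of Hox proteins or of the cofactors, none had an IDR peak or a pooled peak of q under 0.05, against 5.14% and 10.3% of all genes. Some pooled peak was found for 11 of the 12, which is near the background of 83.9%. Peaks per kb were 0.398 over the 6 TALE windows, 0.457 over the Hox windows and 0.392 over the target windows, against 0.299 in the genome. Each of these values rests largely on 1 or 2 loci, for the Hox genes ceh-13 with 9 and lin-39 with 10 of 30 pooled peaks. The windows of nob-1 and php-3 overlap, so shared peaks count for both. A Hox value without ceh-13, the gene carried by the transgene, was not computed, and the order of the 3 lists was not tested. The other 5 TALE genes without unc-62 held 8 pooled peaks in 57.98 kb (0.138 per kb), 12 peaks of replicate 1 (0.207 per kb) and 14 of replicate 2 (0.241 per kb), and the pooled value is the lowest of the 3. The other 10 targets without egl-18 and elt-6, neighbours whose windows overlap so that shared peaks count for both, held 23 pooled peaks in 104.1 kb (0.221 per kb). The median ratio of observed to predicted peaks was 0.607 over the 6 TALE genes, 1.20 over the Hox genes and 0.751 over the targets, against 0.912 over all genes.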

How the data were processed

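Chromatin of 1 group with 2 biological replicates was sheared by sonication and precipitated with an antibody against GFP, per the labels. Whether the replicates came from separate cultures is not stated further. Peaks had been called by the authors for either replicate and for the pool of both, always with 1 common control alignment, and the IDR list comes from these 3 lists (per the deposited descriptions of the files). Per the labels, coordinates are in ce11. Neither the caller nor the aligner nor the cut of the IDR step is given in the sources used here. The signal in the deposited lists is a score of unstated scale, and the deposited q-value is stored as −log10 of q, from which q was computed. Read depth is unknown, and the precision of a signal cannot be given.

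Gene positions came from Ensembl release 115 on WBcel235, and all peaks ended within its chromosomes. Overlap means at least 1 bp, motif windows reached 100 bp to each side of a summit, and 95% intervals are Wilson intervals, for counting error only. Counts of pooled summits per window were tested by a two-sided exact binomial test (doubled smaller tail) against the window's share of the 6 nuclear chromosomes, with Benjamini-Hochberg adjustment over 19973 genes and a threshold of 0.05. The spread of summit counts was measured over bins of 10 kb. The procedure was tested on simulated peaks placed at random and independently, so clustering like that of the real summits was not covered. Other windows, lists, overlaps and motif windows were tried as alternatives, with each replicate alone. The genes and lists were chosen with earlier results of these data known. Peaks described in full are the 3 strongest pooled peaks of each gene and those of q under 0.05 in any list. Other genes are named where they hold or neighbour such a peak, or where a related gene has an IDR peak or a pooled peak of q under 0.05. Exceptions chosen after their values were seen are the unc-62 peak at -3374, the weaker peaks of ceh-20, the genes egl-18 and elt-6, and the genes in the closing section. Computations used Python 3.11.15, numpy 2.4.6, pandas 2.3.3, scipy 1.17.1 and matplotlib 3.10.9.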

Additional observations from a re-analysis of the deposited data

How the results depend on the processing

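No paired analysis was possible because there was a single group. The ratio of observed to predicted peaks of unc-62 stayed above 1 and that of ceh-60 below 1 in all alternatives, while those of the other 4 genes, never past the threshold, turned above 1 in some. With 10 kb upstream they were 1.3 for ceh-20 and 1.72 for irx-1, and with 2 kb 1.36 for ceh-20. Among the 10000 strongest peaks they were 1.27 for ceh-20, 1.16 for ceh-40 and 1.73 for psa-3, and for the gene body alone 1.26 for ceh-40. ceh-20 had 0.423 in replicate 1 alone and 1.69 in replicate 2 alone, and irx-1 had 1.91 and 1.59. The count of genes with more pooled peaks than predicted, 1 (unc-62), fell to 0 in each replicate alone (range 0 to 0) and to 0 with overlapping peaks merged, an alternative chosen after seeing the data. It stayed at 1 with 2 kb or 10 kb upstream, the gene body alone, the 10000 strongest peaks, and with the prediction from the gene's own chromosome, also chosen after seeing the data (exact binomial adjusted p from 7.32e-05 to 0.041). Over all genes the same count was 20, and it fell to 0 in replicate 1 alone, 7 in replicate 2 alone and 0 with peaks merged. It was 6 with 2 kb and 24 with 10 kb upstream, 2 for the gene body alone, 17 among the 10000 strongest and 15 by own chromosome. The 2 genes with a pooled peak of q under 0.05 became 1 in each replicate alone (range 1 to 1), unc-62 in replicate 1 and ceh-20 in replicate 2. The 5 genes with a peak of both replicates became 2 for the gene body alone and 3 among the 10000 strongest peaks, which hold fewer peaks by construction. They became 4 when only summits nearer to the member than to another gene were kept. The 31 pooled peaks became 47 with 10 kb upstream and 17 among the 10000 strongest. TGATNNAT fell from 4 peaks to 2 within 50 bp of the summit. The share of matched replicate 1 peaks was 28.6% with summits at most 100 bp apart, against 20.9% of the whole list. Where not set by a narrower rule, the cause was not tested. The unknown depth limits all statements on missing peaks, as at ceh-60.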

Other observations

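Among the related genes, some had values beyond those counts, and they were chosen after their values were seen. egl-18, a GATA factor gene of the seam cells, held 20 pooled peaks in 21.52 kb (ratio 3.11, exact binomial adjusted p = 0.0420), and the window of its neighbour elt-6 overlaps it and held 10 (ratio 3.46, adjusted p = 0.373). No peak of either gene had q under 0.05 in the pooled list. egl-18 was among the 0.1% of all genes that passed above the prediction there. In replicate 1 alone and with overlapping peaks merged 0 of all genes passed, so egl-18 did not. In replicate 2 alone 7 genes passed, and the value of egl-18 there is not given. The variance of pooled summit counts over 10 kb bins was 1.63 times the mean, while the binomial test takes them as about equal. The Hox gene lin-39 had a replicate 1 peak at +1732 (signal 45.5, q = 0.00780, rank 834), which ranked 13724 in replicate 2. mig-13, a gene of neuroblast migration, had a replicate 2 peak at -2402 (signal 35.5, q = 0.0156, rank 802), which ranked 9611 in replicate 1. Both of these peaks passed q under 0.05 in 1 replicate list and not in the other.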
